A study of Mus musculus with 10 samples.

Results

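The genes described here encode 3 families of RNA-binding proteins that shape neuronal transcripts: the Hu (ELAV) proteins Elavl1, Elavl2, Elavl3 and Elavl4, the Nova proteins Nova1 and Nova2, and the Rbfox proteins Rbfox1, Rbfox2 and Rbfox3. They were found by their symbols among the 48526 gene identifiers of the deposited table, and each of the 9 symbols matched 1 identifier. RNA came from the microdissected dentate gyrus, the hippocampal region that holds the granule neurons, of C57Bl/6 mice (8 weeks old). Of these, 5 had received 1 µl of an adeno-associated virus (AAV) of serotype 9 encoding Sox11, a SoxC transcription factor of newborn neurons, on both sides into the dentate gyrus, and 5 controls the same serotype encoding green fluorescent protein (GFP). All animals of either group therefore carry a virus and an injection. The promoter of the virus, the cells it entered and the time from injection to dissection were not given in the sources used here. Library names follow the column headers: GFP with 1, 3, 4, 5 or 6, and Sox11 with 1, 2, 3, 6 or 7.

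Hu proteins bind U-rich and AU-rich stretches of messenger RNA and act on splicing, stability and translation. Elavl1 (HuR) is made in nearly all cells, whereas Elavl2 (HuB), Elavl3 (HuC) and Elavl4 (HuD) are largely neuronal and are used as markers of neurons from their birth onwards. Nova proteins bind YCAY motifs through KH domains and direct the splicing of many synaptic transcripts, and Rbfox proteins bind GCAUG through an RNA recognition motif and direct neuronal and muscle exons. Rbfox3 is the antigen known as NeuN, the standard nuclear stain of mature neurons. Values here are counts per gene, so splicing itself, through which Nova and Rbfox proteins mainly act, is not measured.

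Start regions of 3 of the 4 members that changed are shown first, since these are the stretches in which the letters of a SOX site could be looked for. The windows run from 250 bases before to 50 after a gene's start, come from RefSeq (GRCm38.p6), and were present for 8 of the 9 members, all but Rbfox2, which changed too. Capitals mark ACAAAG or ACAATG on either strand, cores of sites bound by SOX proteins. The Elavl3 window (chr9:22051974-22052273, minus strand) and the Nova2 window (chr7:18925638-18925937, plus strand) belong to genes that were higher in the Sox11 libraries, and the Elavl2 window (chr4:91399935-91400234, minus strand) is the start farthest upstream of a gene that was lower.
Elavl3: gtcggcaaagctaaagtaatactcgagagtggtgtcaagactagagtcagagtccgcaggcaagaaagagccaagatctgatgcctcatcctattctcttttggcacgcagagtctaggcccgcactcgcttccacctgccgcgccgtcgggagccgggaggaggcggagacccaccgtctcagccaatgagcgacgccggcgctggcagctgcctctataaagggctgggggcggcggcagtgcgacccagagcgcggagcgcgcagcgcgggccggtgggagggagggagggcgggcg
Nova2: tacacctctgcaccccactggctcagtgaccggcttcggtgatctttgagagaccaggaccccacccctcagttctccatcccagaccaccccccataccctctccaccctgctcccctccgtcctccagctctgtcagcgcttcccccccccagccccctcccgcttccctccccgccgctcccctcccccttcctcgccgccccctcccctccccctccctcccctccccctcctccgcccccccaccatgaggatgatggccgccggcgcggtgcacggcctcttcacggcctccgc
Elavl2: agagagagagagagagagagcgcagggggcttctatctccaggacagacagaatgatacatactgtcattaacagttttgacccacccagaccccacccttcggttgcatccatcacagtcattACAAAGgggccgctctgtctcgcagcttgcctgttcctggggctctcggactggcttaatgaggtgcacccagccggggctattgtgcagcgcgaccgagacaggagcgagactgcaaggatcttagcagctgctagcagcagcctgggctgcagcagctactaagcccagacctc
The Elavl2 window holds 1 copy of ACAAAG and is shown for it, while the other 5 windows of Elavl2 hold no copy of either sequence, and the Elavl3 and Nova2 windows hold neither sequence. Among the 17 windows of the members 3 hold a copy: this one, 1 of Elavl4 and the single window of Rbfox3, with 2 copies. Several windows of Elavl2 and of Elavl4 without a copy overlap for most of their length, so the 17 are not separate stretches. Of all 32851 windows, 28.6% hold at least 1 (18.7% ACAAAG, 12.6% ACAATG). G and C make up 65.3% of the Elavl3 window, 71.3% of the Nova2 window and 57.0% of the Elavl2 window. These matches describe letters in a window and are no evidence of binding.

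Libraries held 45100154 (Sox11 6) to 68769808 (Sox11 3) reads in genes. Sox11 itself ranged from 1364 to 1634 normalized counts under the GFP virus and from 9803 to 20434 under the Sox11 virus, so each library matched its label. Reads of the viral copy are not told apart from those of the mouse gene. The granule neuron markers Prox1 and Calb1 were present at 15854 ± 2937 and 13723 ± 2360 normalized counts in the GFP group (mean ± SD, n = 5). GFP 3 stood apart in transcripts of the choroid plexus, with 345861 normalized counts of Ttr against 34.9 to 1312 in the other 9 libraries. The calls of the members are given below with and without it. The libraries numbered 1 to 3 (2 GFP, 3 Sox11) also differed from those numbered 4 to 7 (3 GFP, 2 Sox11), a division that the labels do not name and that was known from earlier results of these data, so values within each part are given for the genes that changed.

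Of the 9 members, all of which passed the low-count filter (a mean of 10 normalized counts or more), 4 changed between the groups. Elavl3, Nova2 and Rbfox2 rose and Elavl2 fell, and Elavl1, Elavl4, Nova1, Rbfox1 and Rbfox3 did not pass. Each family thus had 1 member that rose. The threshold was an adjusted p of 0.05 in limma's moderated test over all 17007 tested genes, of which 19.0% passed in either direction, 9.65% higher and 9.36% lower in the Sox11 libraries. The changes were small, between 17.3% and 22.4% upward and 21.9% downward, on a scale of log2(normalized count + 1), and the median log2 fold change of all tested genes was -0.01. In 3 members, the same that rose, the library values of the groups did not overlap, as was the case for 15.9% of all tested genes. In bulk tissue, fewer cells of a type and less RNA per cell cannot be told apart.

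**Figure D1:**
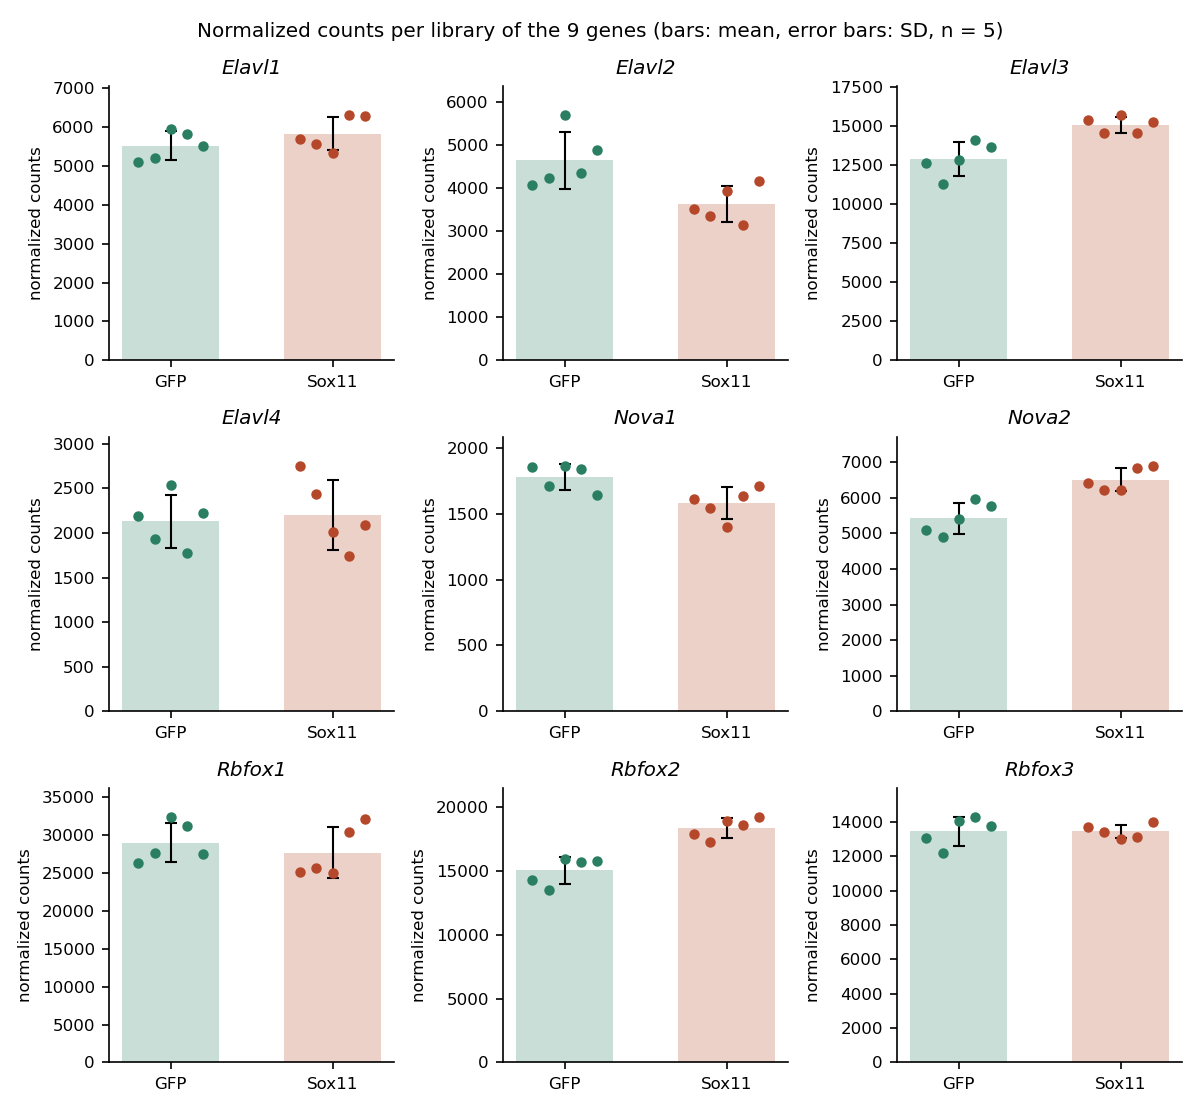
Normalized counts (vertical axis, from 0) of the 9 genes in the GFP and Sox11 libraries. Points are single libraries, in the order of their numbers, bars are means and error bars SD (n = 5 each). Elavl3, Nova2 and Rbfox2 have all 5 Sox11 libraries above all 5 GFP libraries, and the groups overlap in the other 6 genes.

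Elavl3 (ENSMUSG00000003410, chromosome 9, 22015005 to 22052023, minus strand, GRCm38), the most abundant Hu transcript here, had 12635, 11308, 12816, 14095 and 13659 normalized counts in GFP 1, 3, 4, 5 and 6. In Sox11 1, 2, 3, 6 and 7 it had 15406, 14546, 15698, 14565 and 15289. The lowest Sox11 library therefore lay above the highest GFP library, GFP 5, and GFP 3 was lowest of all. Means were 12903 ± 1074 and 15101 ± 520 (SD, n = 5 each), and the log2 fold change was 0.23 (SE 0.06, limma adjusted p = 0.0204). Without GFP 3 the log2 fold change was 0.18 (adjusted p = 0.0254), and without Sox11 3 the call was lost (adjusted p = 0.0509). Within the libraries numbered 1 to 3 it was 0.35 (adjusted p = 0.0424) and within those numbered 4 to 7 it was 0.14 (adjusted p = 0.174). A gene model on the same strand, Gm49318, covers 3.72% of Elavl3's exonic bases.

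Elavl2 (ENSMUSG00000008489, chromosome 4, 91250763 to 91400785, minus strand), its neuronal paralog HuB, moved the other way. The GFP libraries held 4067, 4235, 5688, 4359 and 4890 normalized counts (GFP 1, 3, 4, 5 and 6) and the Sox11 libraries 3517, 3347, 3938, 3150 and 4160 (Sox11 1, 2, 3, 6 and 7). The groups overlapped in 1 place, since Sox11 7 lay above GFP 1, and GFP 4 was the highest library. Elavl2 fell by 0.36 on the log2 scale (SE 0.10, limma adjusted p = 0.0312), from 4648 ± 658 to 3623 ± 418 (mean ± SD, n = 5 each). This is the least stable of the 4 calls: it was kept without GFP 3 (-0.39, adjusted p = 0.0308) but lost in 5 of the 10 fits that leave out 1 library. Those were the fits without GFP 4, GFP 6, Sox11 1, Sox11 2 or Sox11 6, with adjusted p-values of 0.0585, 0.0699, 0.0653, 0.0708 and 0.0699. Limma without its trend and robust options gave 0.0515. The log2 fold change was -0.21 (adjusted p = 0.149) within the libraries numbered 1 to 3 and -0.45 (adjusted p = 0.0964) within those numbered 4 to 7.

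Elavl1 (ENSMUSG00000040028, chromosome 8, 4285382 to 4325413, minus strand), the widely made HuR, stood at 5514 ± 371 normalized counts with GFP and 5829 ± 434 with Sox11 (mean ± SD, n = 5 each). Its log2 fold change was 0.08, with a 95% interval of -0.06 to 0.22 (adjusted p = 0.433). Sox11 6 and Sox11 7 were its highest libraries (6294 and 6274) and GFP 1 and GFP 3 its lowest (5094 and 5208). With the division of the column numbers as a covariate Elavl1 passed, at 0.11 (adjusted p = 0.0405). Elavl4 (ENSMUSG00000028546, chromosome 4, 110203722 to 110351909, minus strand), HuD, varied most within a group, from 1741 (Sox11 6) to 2745 (Sox11 1) normalized counts, and from 1775 to 2537 in the GFP group. The interval of its log2 fold change, -0.24 to 0.33 around 0.04, does not exclude a change of the size seen in Elavl3 (adjusted p = 0.876).

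Nova2 (ENSMUSG00000030411, chromosome 7, 18925888 to 18965319, plus strand), the Nova protein of the forebrain, had 5081, 4905, 5413, 5954 and 5753 normalized counts in GFP 1, 3, 4, 5 and 6 and 6409, 6224, 6203, 6819 and 6877 in Sox11 1, 2, 3, 6 and 7. Every Sox11 library lay above every GFP library. In either group the libraries with numbers above 3 were the higher ones. Nova2 rose by 0.27 on the log2 scale (SE 0.06, limma adjusted p = 0.0105), from 5421 ± 440 to 6506 ± 323 (mean ± SD, n = 5 each). The call was kept in all 10 fits that leave out 1 library (adjusted p of 0.00738 to 0.0271), and it held within the libraries numbered 1 to 3 (0.33, adjusted p = 0.0253) and within those numbered 4 to 7 (0.26, adjusted p = 0.0243). An opposite-strand gene, Gm26821, covers 31.7% of Nova2's exonic bases, and it is not given whether the counting used strand. Gm26821 itself had between 0 and 3.46 normalized counts in the 10 libraries.

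Nova1 (ENSMUSG00000021047, chromosome 12, 46694517 to 46818929, minus strand) had 1850, 1709, 1858, 1841 and 1641 normalized counts in GFP 1, 3, 4, 5 and 6 and 1611, 1542, 1396, 1637 and 1711 in Sox11 1, 2, 3, 6 and 7. Only Sox11 7 reached into the range of the GFP libraries. Means were 1780 ± 98.7 and 1579 ± 119 (SD, n = 5 each), and the log2 fold change of -0.17 (SE 0.06) had an adjusted p of 0.0719 in limma's test. It passed without Sox11 7 (adjusted p = 0.0474) but in none of the other 9 fits that leave out 1 library (up to 0.150), and with DESeq2 on the recovered reads (adjusted p = 0.0412).

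Rbfox2 (ENSMUSG00000033565, chromosome 15, 77078990 to 77307004, minus strand), the Rbfox protein also made outside neurons, was the member with the smallest p. Its counts were 14246, 13501, 15913, 15688 and 15766 in GFP 1, 3, 4, 5 and 6, and 17888, 17213, 18917, 18601 and 19177 in Sox11 1, 2, 3, 6 and 7, on the scale of normalized counts. The lowest Sox11 library, Sox11 2, exceeded the highest GFP library, GFP 4. Rbfox2 rose by 0.29 on the log2 scale (SE 0.06, limma adjusted p = 0.00513), from 15023 ± 1085 to 18359 ± 802 (mean ± SD, n = 5 each). All 10 fits that leave out 1 library kept the call (adjusted p of 0.00701 to 0.0155). The log2 fold change was 0.38 (adjusted p = 0.0289) within the libraries numbered 1 to 3 and 0.26 (adjusted p = 0.0166) within those numbered 4 to 7.

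Rbfox1 and Rbfox3, the paralogs found mainly in neurons and muscle and in neurons, did not pass. Rbfox3 (ENSMUSG00000025576, chromosome 11, 118489762 to 118911597, minus strand) spanned 12199 to 14257 normalized counts with GFP and 13011 to 13989 with Sox11. Its means were 13460 ± 838 and 13439 ± 403 (SD, n = 5 each), and the 95% interval of its log2 fold change ran from -0.11 to 0.11 (adjusted p = 0.997 in limma's test). That interval excludes a change of the size fitted for Rbfox2. The direction of so small a value flips between scalings, with 0.05 after quantile normalization. Rbfox1 (ENSMUSG00000008658, chromosome 16, 5885355 to 7411526, plus strand) had 29020 ± 2628 and 27674 ± 3350, with an interval of -0.27 to 0.12 (adjusted p = 0.646). In the Sox11 group Rbfox1 had 25187, 25672 and 24956 in Sox11 1, 2 and 3. Sox11 6 and 7 had 30454 and 32099, a separation that follows the column numbers. In the GFP group it was not complete. GFP 4 and GFP 5 had 32342 and 31269, but GFP 6 (27516) lay between GFP 1 (26278) and GFP 3 (27693).

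**Figure D2:**
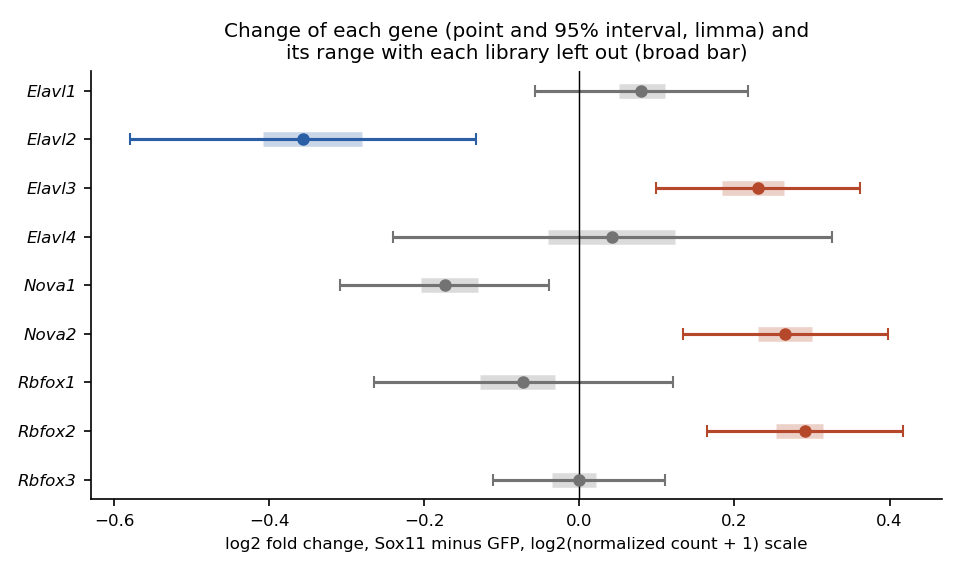
Log2 fold change of each gene (horizontal axis, Sox11 minus GFP) with its 95% interval from limma, and as a broad bar the range over the 10 fits that leave out 1 library. Red marks genes that were higher, blue lower and grey those past no threshold. Elavl3, Nova2 and Rbfox2 lie between 0.23 and 0.29, Elavl2 lies at -0.36, and Rbfox3 lies at 0.

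Of the 5 members that did not pass, none passed without GFP 3, where their log2 fold changes were 0.06 for Elavl1, 0.01 for Elavl4, -0.19 for Nova1, -0.09 for Rbfox1 and -0.04 for Rbfox3. Nor did any pass within a part of the column numbers. Within numbers 1 to 3 and within 4 to 7 the values were 0.10 and 0.13 for Elavl1, 0.21 and -0.18 for Elavl4, -0.23 and -0.09 for Nova1, -0.09 and 0.05 for Rbfox1, and 0.08 and -0.05 for Rbfox3.

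The numbers 1, 3 and 6 occur in the column names of both groups. In a fit of those 6 libraries with the number as a block, none of the 4 calls held: adjusted p-values were 0.214 for Elavl3, 0.254 for Elavl2, 0.115 for Nova2 and 0.125 for Rbfox2. Their log2 fold changes there were 0.28, -0.32, 0.31 and 0.35, close to those over all libraries. The same 6 libraries without the block also lost the calls, with adjusted p-values of 0.122, 0.155, 0.0856 and 0.0572.

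Paralogs were then set against each other within a library, where the library scaling cancels. The log2 ratio of each of the 10 pairs within a family was compared between groups by a two-sided exact permutation test over the 252 assignments of the libraries. Of the 10 pairs 6 passed after Benjamini-Hochberg adjustment over the pairs, and in 5 of these the groups did not overlap. The smallest p that the design allows is 0.00794, reached by those 5 pairs (adjusted p = 0.0159). Pairs of a family can share a gene, and each pair that passed holds Elavl2, Nova2 or Rbfox2, which changed by themselves. Pairs of other genes were not tested, so these counts have no background share beside them. The permutation test takes all 10 libraries as exchangeable. When libraries were exchanged only within numbers 1 to 3 and within 4 to 7 (100 assignments, chosen after seeing the data), the same 5 pairs passed (exact permutation, adjusted p = 0.025 for 4 of them and 0.04 for Elavl1 to Elavl2), and Elavl2 to Elavl4 did not (adjusted p = 0.0833). Over the 3 same-numbered pairs of libraries a paired exact test cannot go below 0.25, and all 3 differences had the pooled direction in each of the 5 pairs.

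In the Hu family the ratio of Elavl2 to Elavl3 was lower in every Sox11 library. It ranged from -1.69 to -1.17 on the log2 scale with GFP and from -2.21 to -1.88 with Sox11, a difference of -0.59 (SE 0.11, exact permutation p = 0.00794, adjusted p = 0.0159). The ratio of Elavl1 to Elavl2 was higher by 0.44 (SE 0.11, exact permutation p = 0.00794, adjusted p = 0.0159). That of Elavl2 to Elavl4 was lower by a log2 difference of -0.40 (SE 0.15, exact permutation p = 0.0238, adjusted p = 0.0397), with overlapping groups, and passed in only 3 of the 10 tests that leave out 1 library (adjusted p up to 0.106). The 5 pairs without overlap passed in all 10 such tests. Elavl4 did not differ detectably from Elavl1 (difference of the log2 ratio 0.04, SE 0.17, exact permutation p = 0.841) or from Elavl3 (0.19 for Elavl3 to Elavl4, SE 0.15, exact permutation p = 0.294), and the errors leave room for differences as large as those called.

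The ratio of Nova1 to Nova2 ranged from -1.81 to -1.46 on the log2 scale with GFP and from -2.15 to -1.99 with Sox11. The difference was -0.44 (SE 0.07, exact permutation p = 0.00794, adjusted p = 0.0159). The fitted changes of Nova1 (-0.17) and Nova2 (0.27) have opposite signs, so their ratio must differ by more than either gene alone. In the Rbfox family the ratio of Rbfox2 to Rbfox3 spanned 0.13 to 0.20 on the log2 scale with GFP and 0.36 to 0.54 with Sox11. It was higher by 0.29 (SE 0.04, exact permutation p = 0.00794, adjusted p = 0.0159). The ratio of Rbfox1 to Rbfox2 was lower by a log2 difference of -0.36 (SE 0.08, exact permutation p = 0.00794, adjusted p = 0.0159), and that of Rbfox1 to Rbfox3 differed by -0.07 (SE 0.08, exact permutation p = 0.389, adjusted p = 0.432).

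**Figure D3:**
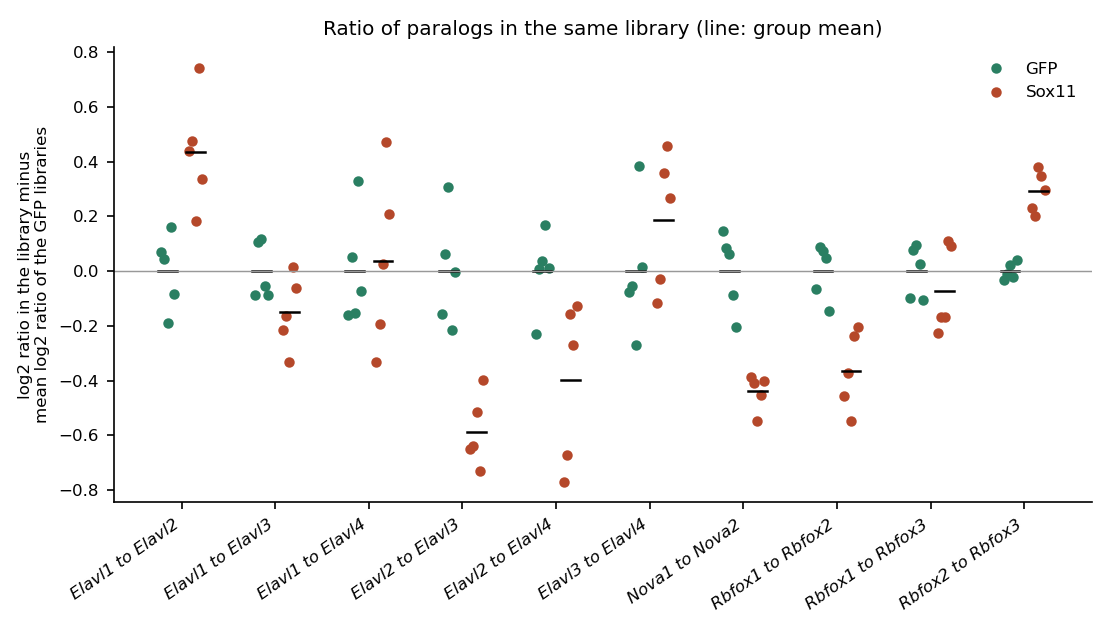
Log2 ratio of 2 paralogs in the same library, as the difference from the mean of the GFP libraries (vertical axis), for the 10 pairs within the 3 families. Points are libraries and black lines group means. In Elavl2 to Elavl3, Elavl1 to Elavl2, Nova1 to Nova2, Rbfox1 to Rbfox2 and Rbfox2 to Rbfox3 the groups do not overlap.

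Levels were compared between members per kilobase of merged exon length, on GENCODE M21 (GRCm38). In the GFP group Rbfox1 was highest, at 6595 ± 597 normalized counts per kilobase (mean ± SD, n = 5), followed by Rbfox3 (2314 ± 144), Elavl3 (1873 ± 156), Rbfox2 (1846 ± 133), Nova2 (648 ± 52.6), Elavl2 (559 ± 79.2), Elavl1 (532 ± 35.8), Elavl4 (395 ± 54.5) and Nova1 (203 ± 11.3). The library values of Elavl3 and Rbfox2 overlapped, as did those of Nova2 and Elavl2 and those of Elavl2 and Elavl1, while each other pair of neighbours was separate. Rbfox1 exceeded 98.6% of the tested genes per kilobase, Rbfox3 94.0%, Elavl3 92.2%, Rbfox2 92.1% and Nova1 49.9%. With the length of the longest transcript instead, 6 of the 9 members kept their place in the GFP group, and Nova2 came after Elavl1.

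In the Sox11 group Rbfox2 (2255 ± 98.5 normalized counts per kilobase), Rbfox3 (2310 ± 69.2) and Elavl3 (2192 ± 75.4) lay together, with overlapping libraries between neighbours. Elavl2 (436 ± 50.3) came below Elavl1 (562 ± 41.9) without overlap and overlapped with Elavl4 (409 ± 72.7). These relations depend on the length used: with the longest transcript only 4 of the 9 members kept their place in the Sox11 group. Rbfox3 (4131 to 4441), Elavl3 (2901 to 3131) and Rbfox2 (2492 to 2776) were then separate, and Elavl2 (752 to 993) overlapped with Elavl1 (928 to 1096) and no longer with Elavl4 (420 to 662). Within the Hu family Elavl3 made up 55.8% ± 2.75 of the level per kilobase with GFP and 60.9% ± 1.21 with Sox11, and Elavl2 16.6% ± 1.60 and 12.1% ± 1.08 (mean ± SD, n = 5 each). Nova1 made up 24.0% ± 1.79 and 18.8% ± 0.681 of its family, and Rbfox2 17.2% ± 0.772 and 20.8% ± 1.26 of its own. For Elavl2, Elavl3, Nova1 and Rbfox2 the shares of the groups did not overlap. The summed level of the Rbfox family was 10754 ± 810 and 10855 ± 851 normalized counts per kilobase, so the groups overlapped.

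**Figure D4:**
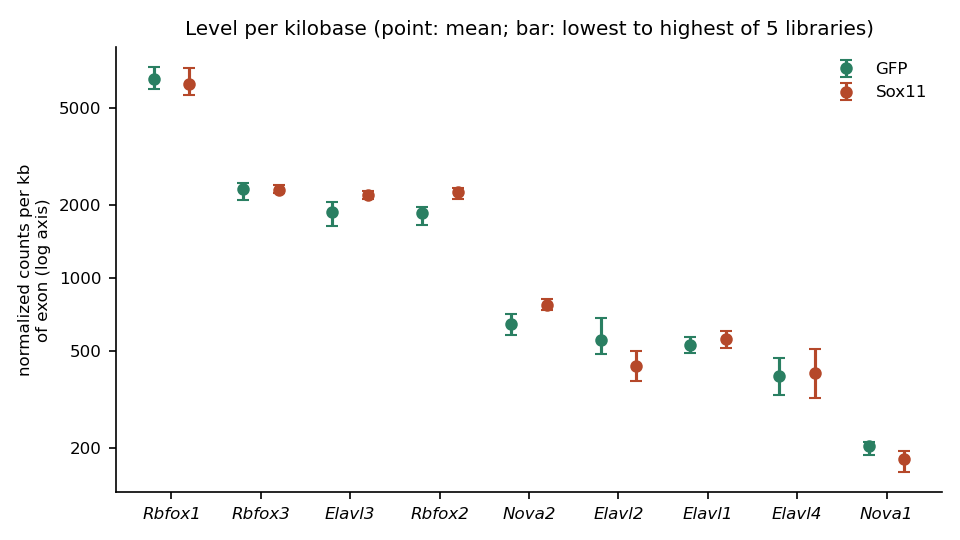
Normalized counts per kilobase of merged exon (vertical axis, logarithmic) of the 9 genes in order of the GFP mean. Points are means and bars run from the lowest to the highest of 5 libraries. Rbfox1 stands above the rest in both groups, and Nova1 is lowest.

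For each member that changed, the tested genes whose log2 values followed it most closely over the 10 libraries were sought among 14255 genes that average 50 normalized counts or more. These are descriptions, since the genes share libraries, depth and the group difference. Elavl3 was followed most closely by Mllt1 (Pearson r = 0.99), Tbc1d13 (0.99) and Farsa (0.99), with r of 0.97 to 0.98 after removal of the group means. Nova2 was followed by Nfix (0.99), Chd3 (0.98) and Cdk5r1 (0.97), the activator of the kinase Cdk5 in neurons, and Rbfox2 by Soga3 (0.99), Fam163a (0.98) and St6galnac5 (0.98). The closest to Elavl2 were Ube2j1 (0.96), the chaperone Hsp90aa1 (0.96) and Mapk10 (0.95), the neuronal JNK kinase. Among the members themselves, Elavl3, Nova2 and Rbfox2 had r of 0.90 to 0.94 with each other, and 0.71 to 0.79 without the group means. Members that did not pass were as close without the group means. Rbfox3 had r of 0.78 with Elavl3, 0.78 with Nova2 and 0.76 with Rbfox2, and Elavl1 had 0.78 with Nova2. Elavl1 and Rbfox1 had r = 0.94 without the group means.

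Other regulators of RNA in neurons were read from the same fit, from lists chosen with earlier results of these data known. Among the 52 tested genes of 3 such lists 8 rose and 6 fell, 26.9% against 19.0% of all tested genes. Of 22 tested splicing regulators 3 rose and none fell, with a list median of 0.02 against -0.01 for all tested genes. Celf3, a CELF protein of neurons, stood at 8739 ± 866 normalized counts with GFP and 11830 ± 587 with Sox11 (mean ± SD, n = 5 each) and rose by 0.44 on the log2 scale (SE 0.07). Srrm4, which activates neuronal microexons, rose by 0.42 (SE 0.09), and Rbm24 by 0.42 (SE 0.11), a call lost without GFP 6 (adjusted p = 0.0502). Limma adjusted p-values were 0.00153, 0.00595 and 0.0211. Ptbp1 and Ptbp2, the repressors whose loss marks steps of neuronal differentiation, had log2 fold changes of 0.10 and 0.05 and did not pass.

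Of 11 RNA-binding proteins of AU-rich elements, which can share binding sites with Hu proteins, 1 rose and 1 fell. Tia1, a stress granule protein, rose by 0.37 on the log2 scale (SE 0.09, limma adjusted p = 0.0185), and Auh fell by 0.20 (SE 0.05, adjusted p = 0.0260, lost without GFP 5, GFP 6 or Sox11 6 at up to 0.0599). The decay factors Zfp36, Zfp36l1 and Zfp36l2 did not pass. Of 19 tested proteins of RNA transport and translation 4 rose and 5 fell, with a list median of -0.11. Msi1, the Musashi protein of neural progenitors, stood at 1434 ± 64.1 normalized counts with GFP and 2174 ± 104 with Sox11 (SD, n = 5 each), with no overlap, and rose by 0.60 (SE 0.05, adjusted p = 2.44e-05). Ybx1 rose by 0.42 (SE 0.06), and Caprin1 rose by 0.21. Cpeb1, which binds the cytoplasmic polyadenylation element, fell by 0.48 (SE 0.06, adjusted p = 0.000259), and its paralogs Cpeb2 and Cpeb3 fell by 0.32 and 0.29. Fxr1 and Fxr2 fell by 0.17 and 0.13 (limma adjusted p = 0.0295 and 0.0494). Fxr2 was thus close to the threshold, and its groups overlapped. Cpeb4 did not pass.

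Of 16 transcripts described as bound or regulated by Hu proteins 4 rose and 4 fell, with a list median of 0.08. Of all tested genes 19.0% passed in either direction, and this list too was chosen with earlier results of these data known. Those that rose were Msi1, Marcks (0.50, SE 0.07), the cell-cycle inhibitor Cdkn1a (0.64) and Myc (0.49). Among those that fell were Nrn1, Kcna1 and Homer1, by 0.33, 0.31 and 0.28 on the log2 scale. Gap43, the best-known HuD target, had 4171 ± 739 and 4453 ± 878 normalized counts and a log2 fold change of 0.09 (adjusted p = 0.762).

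**Figure D5:**
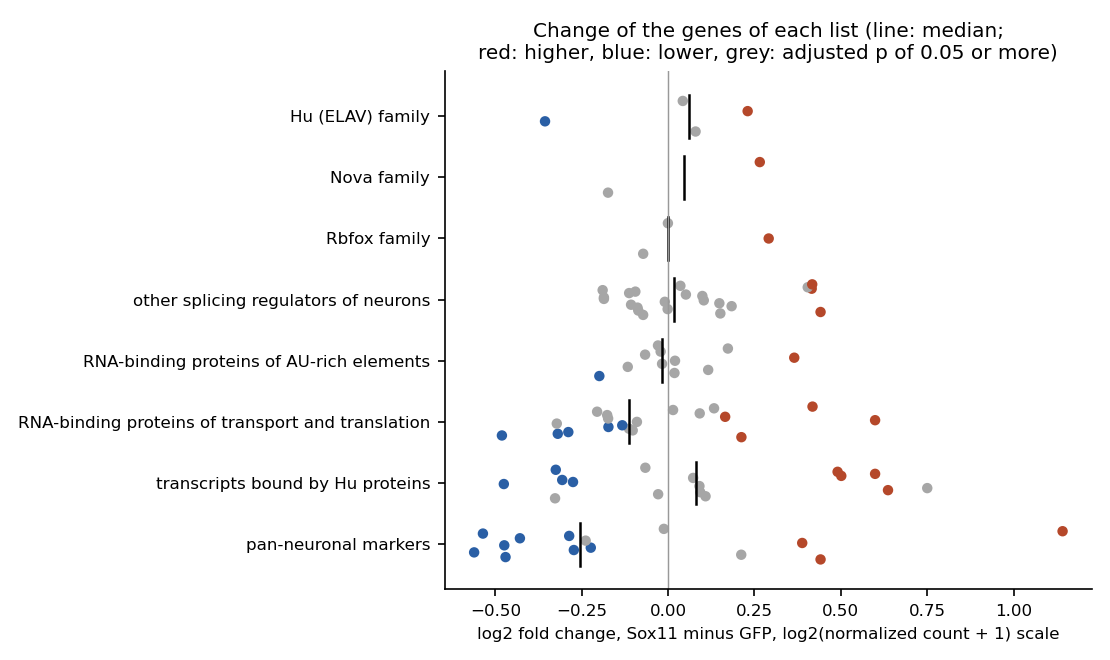
Log2 fold change (horizontal axis, Sox11 minus GFP) of each tested gene of the 3 families, of the 3 lists of other RNA-binding proteins, of transcripts bound by Hu proteins and of pan-neuronal markers. Each point is a gene, red where it was higher, blue where lower and grey where the adjusted p was 0.05 or more, and the black line is the list median. The member genes lie between -0.36 and 0.29, and the pan-neuronal markers between -0.56 and 1.14.

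Because the neuronal members mark neurons, marker lists were set beside them, chosen with earlier results of these data known. Of all tested genes 9.65% were higher and 9.36% lower in the Sox11 libraries. Of 14 pan-neuronal markers 3 rose and 8 fell, with a median of -0.26 and summed normalized counts of 507719 to 607278 in the GFP libraries and 476688 to 516643 in the Sox11 libraries. The largest changes were those of Tubb3 (1.14, SE 0.12) upward and of Nefh (-0.56, SE 0.09) downward on the log2 scale, and Celf3 rose as above. Immature neuron markers had 8 of 12 that rose and none that fell, with sums of 28328 to 35599 and 61581 to 82724. The log2 fold changes of those 8 ran from 0.34 (Tbr1) to 3.78 (Cd24a). Igfbpl1 (0.16), Calb2 (0.06), Neurod1 (0.01) and Sox4 (-0.17) did not pass. The smallest p-values were those of Stmn1 (1.52), Dcx (1.77) and Dpysl5 (0.99). Mature granule neuron markers had 2 of 12 that rose and 4 that fell (sums 78085 to 107986 and 82356 to 112812), among them Plk5 (-0.39), Gabrd (-0.51) and Lct (0.29), which no longer passed when any of GFP 1, GFP 3, GFP 4, GFP 6 and also of Sox11 6 and Sox11 7 was left out (adjusted p up to 0.0820). Of the members also used as neuronal markers, Rbfox3 and Elavl4 did not pass, Elavl3 rose and Elavl2 fell, as given above.

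Lists of other neurons bear on Elavl2, and most of their genes did not pass, where 19.0% of all tested genes passed in either direction. Of 11 interneuron markers 2 fell, Gad2 (-0.30, SE 0.08, limma adjusted p = 0.0253, lost without GFP 4, GFP 5, GFP 6, Sox11 6 or Sox11 7 at up to 0.0595) and Npy (-0.42, SE 0.10). The list median was -0.15. The others did not pass: Erbb4 (-0.29), Pvalb (-0.26), Gad1 (-0.20), Sst (-0.15), Dlx1 (-0.14), Slc32a1 (-0.07), Vip (-0.04), Reln (-0.01) and Lhx6 (0.06). The summed normalized counts of all 11 were 39474 to 46955 in the GFP libraries and 32011 to 40280 in the Sox11 libraries. Of 8 markers of CA pyramidal neurons 1 fell, Nptx1 (-0.58, SE 0.10; sums 81828 to 103806 and 66121 to 74908). Most of that sum is Nptx1 itself, at 49904 to 74968 and 37604 to 43926. The other CA markers did not pass: Kcnq5 (-0.38), Spock1 (-0.22), Man1a (-0.12), Fibcd1 (-0.10), Wfs1 (-0.04), Bok (0.13) and Iyd (0.35). Of 8 mossy cell markers 3 fell, Ajap1 (-0.41), Ociad2 (-0.44) and Nmb (-0.75; sums 11516 to 14509 and 9709 to 13126). Elavl2 is known from several of these neuron types, and their part in its change was not tested.

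Non-neuronal lists bear on Elavl1 and Rbfox2 as genes also made in glia. Of 9 astrocyte markers 3 rose, where 9.65% of all tested genes did. These were Gfap (0.46, SE 0.08), Aldh1l1 (0.22) and Sox9 (0.29). Sox9 no longer passed when any of Sox11 2, Sox11 3, Sox11 7 and also of GFP 4, GFP 5 and GFP 6 was left out (adjusted p up to 0.0639). Sums were 294631 to 376022 and 323947 to 404131 normalized counts. Of 9 microglia markers C1qb (0.33) and C1qc (0.30) rose (sums 23054 to 27904 and 22872 to 28163). No marker passed among 9 of oligodendrocytes (lowest p for Olig2, -0.10; sums 81689 to 146581 and 71445 to 167175), 7 of endothelium (Flt1, -0.18; 6861 to 13208 and 7514 to 11447) and 8 of choroid plexus (Kl, -1.71, which passed at -1.09 without GFP 3; 4751 to 565250 and 4254 to 8115). No marker of any list was at 0 in all libraries. The part of these cells in the changes of the members was not tested, beyond the fits without GFP 3, in which Nova2 stood at 0.23 (adjusted p = 0.0181) and Rbfox2 at 0.25 (adjusted p = 0.00707).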

How the data were processed

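RNA from the dentate gyri of 10 mice was sequenced with a stranded mRNA kit, per the labels' protocols. Tools named in the submitters' processing notes include cutadapt 1.9.1, STAR 2.5.2a, featureCounts 1.5.1, DESeq2 1.12.3 and GRCm38. The authors deposited a signal per gene, read counts divided by 1 factor per library, per the values themselves: 100% of values above 0 were whole multiples of the value of 1 read within 0.01 reads, so whole reads were recovered. Annotation release, strand setting and handling of multi-mapping reads were not given in the sources used here. Symbols came from GENCODE M21 for 48144 of 48526 identifiers.

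Headers carry other numbers than the titles, so a column has a group but no sample of its own, and no 2 libraries of a group agreed within sampling noise. Whether the mice were independent litters is not stated, so p-values measure the spread between these samples. Genes averaging 10 normalized counts or more were tested as log2(normalized count + 1) with limma 3.58.1 (trend, robust) in R 4.3.3, with Benjamini-Hochberg adjustment. Paralog ratios were tested by exact permutation in Python 3.11.15. Scripts were tested on simulated data. Of the members' 31-base words between 69.0% (Nova2) and 100% occur in no other gene's transcripts.

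Named genes were Sox11, the members, up to 3 genes of lowest p among those past the threshold in each list (otherwise the 1 of lowest p), and the 3 genes most like each member that changed. Any other gene named was picked after its values were known. Some genes that the rule names are not reported here. Members and lists were chosen with earlier results of these data known. Deviations from the group means correlated at 0.205, 0.153 and 0.466 between same-numbered libraries (1, 3 and 6, from the column names). Only GFP 6 correlated best with the Sox11 library of its own number, and GFP 1 and GFP 3 each correlated best with Sox11 2. A blocked fit on these numbers is given. Alternatives included other pseudocounts, filters, scalings and thresholds, edgeR 4.0.16, DESeq2 1.42.0 and leaving out each library.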

Additional observations from a re-analysis of the deposited data

Results flagged for a closer look

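Among 108 groups of 5 libraries checked, 3 held a library far from the others. Chance gives about 1 in 20. Sox11 had 1634 normalized counts in GFP 5, against 1364 to 1399 in the other GFP libraries. It had 20434 in Sox11 3, against 9803 to 11591 in the other Sox11 libraries. Kl, from the list of choroid plexus markers, had 13733 in GFP 3, against 1448 to 1722 in the other GFP libraries. It passed without GFP 3 (limma adjusted p = 0.000176), and which cells made it in the other libraries was not tested. None of the 9 RNA-binding protein genes had such a library in either group.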

How the results depend on the processing

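Over all tested genes 3234 changed. The count was 1013 within the libraries numbered 1 to 3, 42 with the replicate block on shared column numbers (6 libraries), 603 on those 6 libraries without the block (added after seeing the data) and 1537 at a threshold of 0.01. It lay between 2487 and 3268 with 1 library left out. Of the 9 members 4 changed. The count was 2 within the libraries numbered 4 to 7, 0 with the replicate block, 0 on the same 6 libraries without it and 1 at a threshold of 0.01, and 3 to 5 with 1 library left out. Over the other lists 55 genes changed, against 22 within the libraries numbered 1 to 3, 5 with the replicate block, 14 on those 6 libraries without it and 30 at a threshold of 0.01, and 41 to 60 with 1 library left out. The blocked fits rest on fewer samples. Between 5 and 6 paralog pairs passed with 1 library left out, and 5 when libraries were exchanged only within column numbers 1 to 3 and 4 to 7 (added after seeing the data). With the longest transcript 6 members kept their place by level with GFP and 4 with Sox11.

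Reversed directions were found only in values past no threshold, and the cause was not tested. The log2 fold change of Rbfox3 was 0.00787 with TMM scaling, 0.0488 with quantile normalization, 0.00604 in edgeR, 0.0166 with the column numbers as covariate, 0.0822 within numbers 1 to 3 and 0.0309 in the 6 libraries with or without the replicate block, and -0.0354 to 0.0208 with 1 library left out. Within numbers 4 to 7 Elavl4 was at -0.178 and Rbfox1 at 0.0451. Elavl4 ranged from -0.0411 to 0.123 with 1 library left out, and the ratio of Elavl1 to Elavl4 from -0.0719 to 0.129. Olig2 was at 0.0875 within numbers 1 to 3. The members had at least 1396 normalized counts in every library. The changes called here were small in percent, although in Elavl3, Nova2 and Rbfox2 the groups did not overlap. A member that did not pass may still differ within its interval.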
